A study of Mus musculus with 22 samples.

Results

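The cells described here are those to which the study's deposited cell table gives the cluster name Epiblast: 398 of the 77674 cells used. They come from gastruloids, balls of cultured mouse stem cells in which post-implantation tissues arise without an embryo, grown here from the wild-type embryonic stem cell line E14Tg2A. Aggregates were seeded with 300 cells per well, left for 48 h and then treated with 3 µM CHIR99021, which inhibits the kinase GSK3 and so activates Wnt signalling. These steps were common to all samples, so there is no untreated group, and a single stem cell line stands behind every value. Cells were read as UMI counts (unique molecular identifiers, 1 per captured mRNA molecule) by droplet-based 3' single-cell RNA-seq, at day 3 and day 4 in an experiment without gastruloid labels (here the 10X experiment) and between days 3 and 5 in experiments called MULTI-seq 1, 2 and 3. In MULTI-seq the cells of each gastruloid carry a DNA barcode of their own, so a pooled suspension can be assigned back to single gastruloids, which are the replicates below. Of the 398 cells, 193 carried the barcode of 1 gastruloid, 105 were called Negative, 51 were called Doublet (barcodes of more than 1 gastruloid) and 49 sat in lanes without calls. The 193 cells with the barcode of 1 gastruloid fell into 72 of 136 gastruloids. Lanes had median depths of 8287 to 38443 UMIs per cell. No cell barcode was shared between cells named Epiblast in different lanes (0 of 398), although 1471 of all cells shared a barcode sequence with a cell of another lane.

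The epiblast is the pluripotent tissue of the early embryo from which the germ layers arise. Its cells express the transcription factor Pou5f1 (Oct4), and as they leave pluripotency they either enter the primitive streak, where Wnt, Nodal and FGF signals switch on T (Brachyury) and Mixl1 and lead to mesoderm and endoderm, or take a neural path marked by Sox2. In gastruloids the Wnt-activating pulse drives most cells towards a streak-like state.

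The name was first set against 4 epiblast markers at day 3 of MULTI-seq 3, in the 15 gastruloids with at least 3 cells named Epiblast (66 such cells, beside 2109 cells named Primitive Streak and 555 named Early Neurectoderm in the same gastruloids). UMIs were summed per gastruloid and type and are given as CPM levels, each a gene's part of that sum on a common scale. Pou5f1, the central pluripotency factor, ranged from 266 to 726 CPM in the cells named Epiblast with a median of 492, against 711 to 853 (median 796) in Primitive Streak and a median of 892 in Early Neurectoderm. It was lower than in Primitive Streak in 15 of 15 gastruloids, although the 2 ranges overlapped at their edge. Dnmt3b, a de novo DNA methyltransferase of the epiblast, had a median of 112 CPM (22.8 to 192), against 197 (155 to 231) in Primitive Streak and 228 in Early Neurectoderm, and was also lower than in Primitive Streak in 15 of 15. Nanog, a pluripotency factor, was 0 in 2 gastruloids and reached 45.7 CPM with a median of 10.7, while Primitive Streak held 20.2 to 31.5. Utf1, a chromatin-associated factor of pluripotent cells, was the exception, with 11.5 to 172 CPM and a median of 53.3 against 15.1 to 31.5 in Primitive Streak, higher in 13 of 15. By the median log2 ratio over gastruloids, 3 of the 4 markers were lower than in Early Neurectoderm (67.6% of all genes) and 1 higher. All 4 were lower than in cells named PGCs (37.3% of all genes), in 4 gastruloids. The name is therefore not borne out by 3 of its 4 markers relative to Primitive Streak. The cells are called here by their rule, as cells named Epiblast.

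The authors' own numbering of clusters placed the 398 cells in the same numbered cluster as 8540 cells named Primitive Streak and 279 named PGCs, 9217 cells in all. The cell table also gives, for each cell, the type it resembled most in an embryo reference. Of the 398 cells, 143 (35.9%, exact 95% interval 31.2 to 40.9) mapped to the embryo's Epiblast, 95 to Primitive Streak, 59 to PGC and 28 to Ectoderm. In the day 3 pool of MULTI-seq 3 the share was 64.0% (110 of 172 cells), and in the pool of days 3.5 and 4 it was 11.6% (17 of 147). In the 10X day 3 lane PGC was the most common mapped type, with 14 of 33 cells (42.4%) against 9 for Epiblast. The table also holds another mapping, named original, in which PGC was the most common type. By it 196 of 398 cells (49.2%, exact interval 44.2 to 54.3) mapped to PGC and 65 (16.3%) to Epiblast. PGC took 58.1% of the day 3 pool of MULTI-seq 3 and 72.7% of the 10X day 3 lane. By the first mapping, most cells that mapped to the embryo's Epiblast carried other names: of 1554 such cells, 841 were named Primitive Streak, 259 PGCs and 231 Early Neurectoderm. The median mapping score, the share of reference neighbours with the mapped type, was 0.70 in the cells named Epiblast, 0.73 in Early Neurectoderm and 0.90 in Primitive Streak, and 8 of the 25 types had a median under 0.70.

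Cells named Epiblast were rare, and their share fell between day 3.5 and day 4. Among the cells of a lane group they made up 1.42% of the day 3 pool of MULTI-seq 3 (172 of 12086, exact 95% interval 1.22 to 1.65), 0.647% of its pool of days 3.5 and 4 (147 of 22712) and 0.0956% of its pool of days 4.5 and 5 (17 of 17790). In the 10X experiment they were 1.08% at day 3 (33 of 3058, interval 0.744 to 1.51) and 0.287% at day 4 (7 of 2440). In MULTI-seq 2 they were 0.126% of pool B (6 of 4746) and 0.176% of pool C (9 of 5106), and in MULTI-seq 1 at day 5 they were 0.0719% (7 of 9736). These intervals cover counting error alone.

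**Figure D1:**
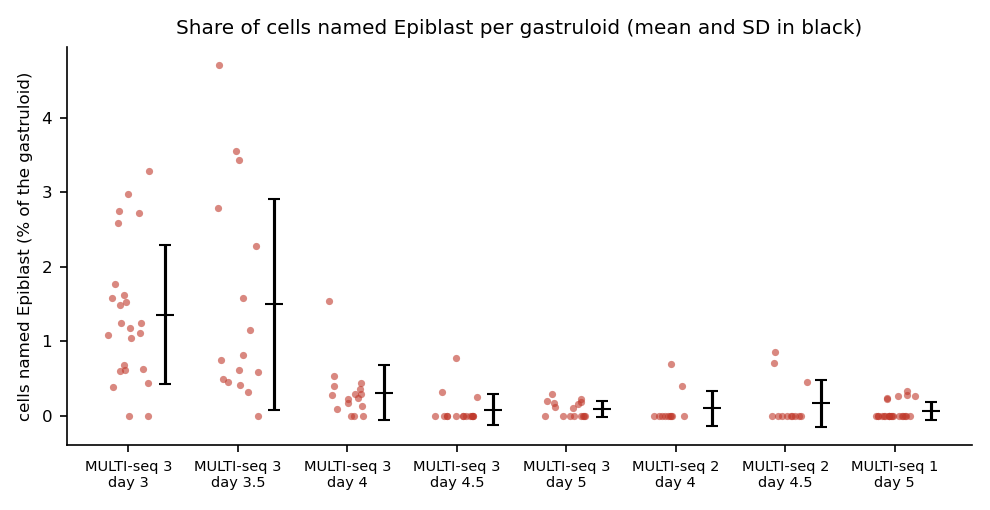
Percent of a gastruloid's cells named Epiblast (vertical axis) in each gastruloid with at least 30 cells (points), by experiment and day (horizontal axis), with the mean and SD as a black dash and bars. In MULTI-seq 3 the mean was 1.36% at day 3, 1.5% at day 3.5 and 0.313% at day 4, and single gastruloids reached 4.71% at day 3.5.

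Over single gastruloids of MULTI-seq 3 the share was 1.36% ± 0.928 (SD, n = 24 gastruloids) at day 3, 1.5% ± 1.42 (n = 16) at day 3.5, 0.313% ± 0.364 (n = 16) at day 4, 0.0837% ± 0.208 (n = 16) at day 4.5 and 0.0910% ± 0.102 (n = 16) at day 5. The day 3 gastruloids ran from 0 to 3.29% and the day 3.5 gastruloids from 0 to 4.71%, so the ranges overlapped, with the highest day 3.5 gastruloids above every day 3 gastruloid. Day 4 was lower than day 3.5 by 1.18 percentage points (two-sided permutation test, p = 0.00088, 0.0044 after Benjamini-Hochberg adjustment over 5 comparisons), and 15 of 16 day 4 gastruloids lay under the day 3.5 median of 0.787%. The cell table also classes gastruloids as neural, mesodermal or intermediate, and most were neural at day 3.5 and mesodermal at day 4. Those classed mesodermal ran from 0 to 0.752% at day 3.5 and from 0 to 0.538% at day 4. Those classed neural ran from 0.323 to 4.71% at day 3.5 and from 0.438 to 1.54% at day 4. The part of class in the fall was not tested. Both days came from one pool and the same 4 lanes, and within each lane the share was lower at day 4 (0.182 to 0.341%) than at day 3.5 (0.847 to 1.45%). The lanes share their gastruloids, so they are technical repeats of the same comparison. The other comparisons did not pass: day 3.5 against day 3 (adjusted p = 0.888), day 4.5 against day 4 in MULTI-seq 2 (0.0998% ± 0.232, n = 11, and 0.169% ± 0.317, n = 12; adjusted p = 0.888), day 5 against day 4.5 (adjusted p = 0.919) and MULTI-seq 3 against MULTI-seq 2 at day 4 (adjusted p = 0.208). Without lane 2 of pool B the last of these passed, with a difference of 0.313 points and an adjusted p of 0.00505. No day 4 gastruloid of MULTI-seq 2 then held a cell named Epiblast, so that value is the MULTI-seq 3 mean set against a count of 0. The embryo-mapped name Epiblast covers a mostly different set of cells, 1554 in all, of which 143 were named Epiblast. The share of that set fell by 8.04 points from day 3 to day 3.5 (permutation test, adjusted p = 5e-05). From day 3.5 to day 4 it fell by 0.192 points (permutation test, adjusted p = 0.359). Days 3 and 3.5 sat in different pools, so day and pool cannot be told apart between them.

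At day 3, gastruloids with more cells named Epiblast held more Early Neurectoderm among their other cells. Across the 24 gastruloids Pearson's r was 0.588 (permutation p = 0.0027, adjusted over 8 types 0.0216) and Spearman's rho was 0.477 (adjusted p = 0.0406), and r was 0.477 without the 2 gastruloids farthest from the median share. By rank, 3 streak and mesoderm types went the other way: Anterior Primitive Streak (rho -0.596, adjusted p = 0.0209), Early Nascent Mesoderm (rho -0.492, adjusted p = 0.0406) and Early Posterior PSM (rho -0.474, adjusted p = 0.0406), although their Pearson r of -0.466, -0.461 and -0.418 did not pass after adjustment (0.0621, 0.0621 and 0.0796). All 8 shares are parts of the same other cells, so these relations are not independent of that with Early Neurectoderm. The share of cells named Primitive Streak, the largest type at that day with a mean of 57.9%, showed r = 0.0267. For Early Neurectoderm r was 0.458 from the cells of lane A alone (permutation test, adjusted p = 0.19) and 0.508 from those of lane B alone (adjusted p = 0.0492). For Anterior Primitive Streak r was -0.424 and -0.243, for Early Nascent Mesoderm -0.34 and -0.294, and for Early Posterior PSM -0.283 and -0.22, from lanes A and B, with adjusted p of 0.19 to 0.49 by permutation.

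The depth of cells named Epiblast, set beside that of the other cells, differed by day and experiment. In the whole day 3 pool of MULTI-seq 3 their median was 29210 UMIs per cell against 29333 in the other cells, and the 77 that carried the barcode of 1 gastruloid had a median of 25370. In the 15 day 3 gastruloids with at least 3 such cells the median depth per gastruloid was 18294 to 52439 UMIs per cell (median 33359), against 26946 to 30666 (median 28670) for the other cells of the same 15 gastruloids. They were deeper in 11 of 15, and the mean log2 difference of 0.18 did not pass a paired sign-flip permutation test (adjusted p = 0.215). At day 3.5 they held 50805 to 119497 UMIs per cell (median 68026) against 32403 to 40829 (median 37406) in the other cells, with no overlap. They were higher in 7 of 7 gastruloids (exact sign-flip test, p = 0.0156, the smallest 7 gastruloids can give; adjusted p = 0.0469). At day 4 the medians were 36323 and 30988, higher in 5 of 6 (exact sign-flip test, p = 0.469). In the 10X day 3 lane the order was the opposite, 11499 UMIs per cell against 16485. In the pool of days 3.5 and 4 the MULTI-seq barcodes called 18.4% of them Doublet (27 of 147, exact interval 12.5 to 25.6) against 5.61% of the other cells, and the authors' doublet score was higher than in the other cells in 7 of 7 gastruloids at day 3.5 and 6 of 6 at day 4. At day 3 the Doublet calls were 13.4% and 12.1%, and the score was higher in 7 of 15 gastruloids. Mitochondrial transcripts made up 1.09 to 1.66% of their UMIs at day 3 and 2.09 to 2.34% of those of the other cells, without overlap, and ribosomal protein transcripts 32.8 to 40.3% against 29.8 to 31.2%. In the 10X day 3 lane the median mitochondrial share was 4.85% in both. The authors' cell cycle calls put 66.6% of the 398 cells in G1 and 2.01% in S, against 40.0% and 12.4% of the cells named Primitive Streak. Malat1, a nuclear noncoding RNA, was higher in the cells named Epiblast than in Primitive Streak in 15 of 15 gastruloids at day 3 (12125 and 5154 CPM over the summed cells). The part of doublets, phase, Malat1 and mitochondrial share in the gene differences below was not tested. Depth was tested in the comparisons of days alone.

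At day 3 the cells named Epiblast held lower levels of 8 of 15 measured primitive streak genes than cells named Primitive Streak, but not than Early Neurectoderm or PGCs. Differences are given as the median over the 15 gastruloids of the log2 ratio between types, with 10 CPM added to both levels, and a gene is counted as higher or lower from a median of 1 in either direction, among genes with at least 5 CPM over all cells. How the cluster names were given is not stated in the sources used here. Since they may rest on these genes, no test was made. By this count 78 genes were higher (0.863% of all) and 134 lower (1.48%) than in Primitive Streak, with a median of -0.14 over all genes kept. Of the 9039 genes 66.7% had a negative and 33.3% a positive ratio to Primitive Streak, and against Early Neurectoderm 67.6% and 30.8%, and counts of negative or positive members are to be read against these shares. Of the 15 measured primitive streak genes 8 were lower than in Primitive Streak and 0 higher, with a median of -1.27. Against Early Neurectoderm 0 were lower and 1 higher (median -0.12), and against PGCs also 0 and 1 (median 0.0). T, the T-box factor of streak and early mesoderm, was 0 to 150 CPM (median 68.3) in the cells named Epiblast and 532 to 648 in Primitive Streak, a ratio of -3.07. Fgf8, the FGF ligand of the streak, was 0 to 64.0 CPM against 277 to 420 (ratio -3.40), and the ranges of both genes did not overlap. Mixl1, a homeobox factor of mesendoderm, was 0 in 9 of 15 gastruloids and reached 48.0 CPM, against 32.6 to 85.9. Outside the list, S100a10, a calcium-binding protein family member, had the lowest ratio of the named genes at -3.96 (29.9 and 358 CPM over the summed cells), followed among genes of known signalling roles by Rspo3, an amplifier of Wnt signalling (ratio -2.74), Tdgf1, the Nodal co-receptor Cripto (ratio -2.18), Fgf5, a ligand of the primed epiblast (ratio -2.13), and Fst, an antagonist of activins (ratio -2.05).

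Not every streak-associated gene was low. Nodal, the TGF-beta ligand of the epiblast and streak, was 35.8 CPM over the summed cells in the cells named Epiblast and 35.8 in Primitive Streak (ratio -0.15) but 1.86 in Early Neurectoderm (ratio 1.87). Wnt3, the Wnt ligand that starts the streak, was 18.6 and 17.1 CPM (ratio 0.01), and the Wnt target Axin2 54.9 and 42.3 (ratio 0.26). Of the 10 measured caudal epiblast genes 6 were lower and 0 higher (median -1.09), among them Hoxb1 (ratio -1.27) and Wnt3a (ratio -1.13), and of 11 nascent mesoderm genes 3 were lower and 0 higher (median -0.70), beside 1.48% lower and 0.863% higher over all genes, which is also the background of the other counts here. Cell cycle genes lay below Primitive Streak without many passing the threshold: 15 of 16 G1/S genes were negative with a median of -0.59 and 2 lower, and 16 of 16 G2/M genes were negative with a median of -0.64 and 1 lower, beside 66.7% negative over all genes. Of 16 glycolysis genes 14 were negative, beside the same share (median -0.47, 1 lower and 1 higher).

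Of 10 measured neurectoderm genes 3 were lower than in Early Neurectoderm, and of 16 core pluripotency genes 8 were lower than in cells named PGCs, although PGC was the most common type in the original mapping. Against Early Neurectoderm 123 genes were higher (1.36%) and 146 lower (1.62%), with a median of -0.18 over all genes, and the 10 measured neurectoderm genes were all negative, beside 67.6% of all genes (median -0.74). Hes3, a repressor of neural progenitors, was 0 in 7 of 15 gastruloids with a median of 4.27 CPM, against 50.1 to 93.5 in Early Neurectoderm. Ptn, a growth factor of neural progenitors, lay between the types, with 0 to 376 CPM (median 130) in the cells named Epiblast, 34.0 to 79.4 in Primitive Streak and 450 to 635 in Early Neurectoderm. Sox2, shared by pluripotent and neural cells, was higher than in Primitive Streak in 12 of 15 gastruloids (ratio 0.65) and its ratio to Early Neurectoderm was -0.56. Against cells named PGCs, in 4 gastruloids with 16 and 17 cells, 788 genes were higher (8.72%) and 205 lower (2.27%), with a median of 0.17 over all genes. Of the 16 core pluripotency genes 8 were lower and 1 higher (median -0.85), of the 4 measured naive pluripotency genes 2 were lower and 0 higher (median -1.38), and of the 6 measured germ cell genes 2 were lower and 0 higher (median -0.76). The 3 lowest were Dppa5a, a pluripotency-associated gene (24.9 against 1847 CPM, ratio -5.85), Trh, the precursor of a releasing hormone (21.6 against 946, ratio -5.31), and Klf2, a factor of naive pluripotency (1.66 against 227, ratio -4.26). Further down the 15 lowest were 1700097N02Rik, Trap1a and Platr10. So were Zfp42, the naive marker Rex1 (3.32 against 63.3, ratio -2.68), and Dppa4, a pluripotency-associated nuclear protein (9.96 against 75.6, ratio -2.73). Against Primitive Streak 3 of the 16 core genes were lower and 1 higher, 1 of the 4 naive genes was lower and 0 higher, and 0 of the 6 germ cell genes passed in either direction. Against the same cells, markers of definitive endoderm had 1 of 8 higher and 1 lower, and of 3 measured extraembryonic genes 0 were higher and 2 lower. Over all genes 0.863% were higher and 1.48% lower than in Primitive Streak. Of the signalling lists, the FGF and ERK feedback genes lay lowest, with 12 of 13 negative (66.7% over all genes), 2 lower and a median of -0.63. The 14 Nodal pathway genes (1 lower, median -0.20), 16 Wnt targets (2 lower, median -0.21) and 10 BMP targets (1 lower, median -0.08) lay near the median of all genes.

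**Figure D2:**
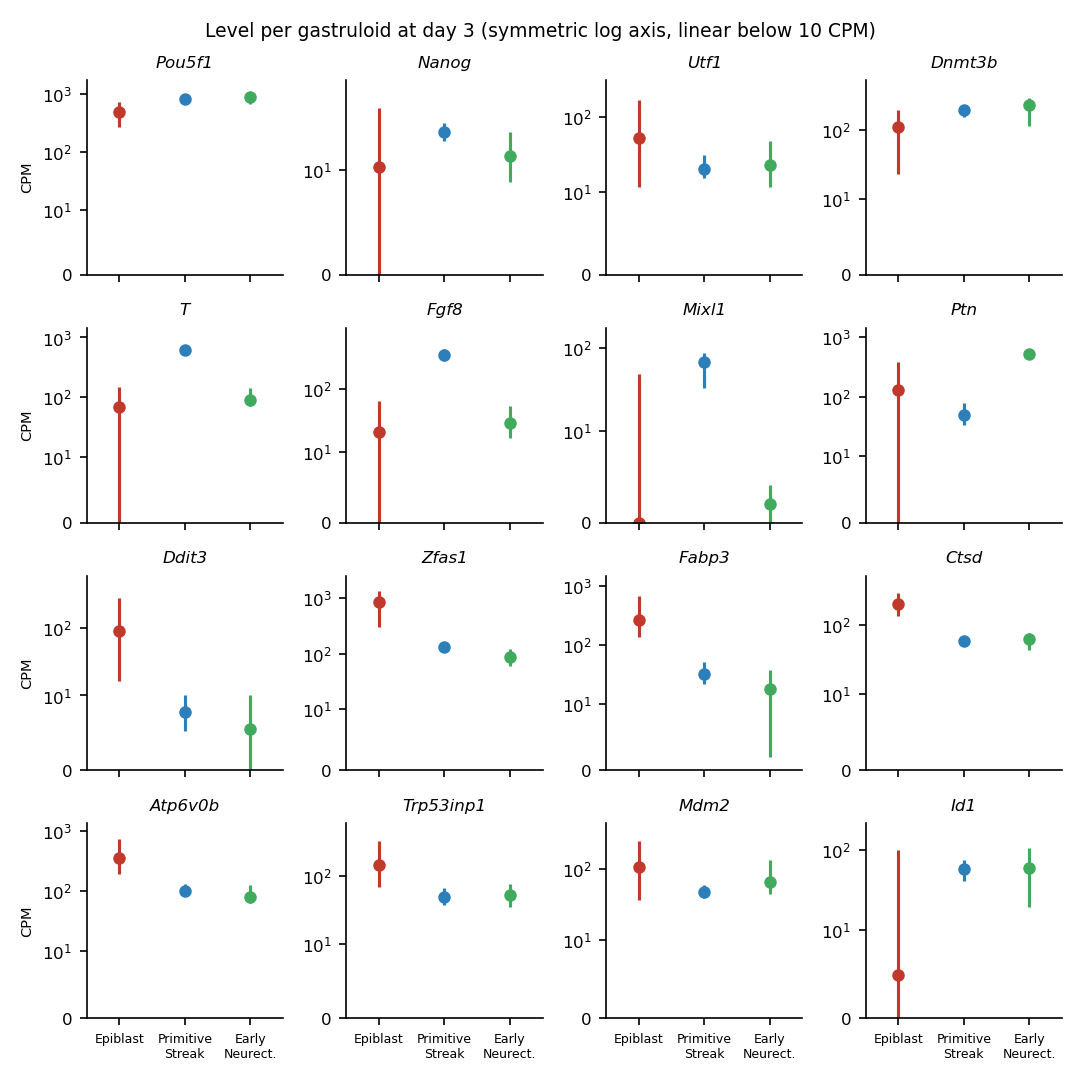
Level in CPM (vertical axes, symmetric log scale, linear below 10 CPM) of 16 genes in cells named Epiblast, Primitive Streak and Early Neurectoderm over 15 day 3 gastruloids of MULTI-seq 3, with the median as a point and the lowest to highest gastruloid as a line. Pou5f1 and Dnmt3b had lower medians in the cells named Epiblast than in both other types, T and Fgf8 did not overlap with Primitive Streak, and Ddit3, Zfas1, Fabp3, Ctsd and Atp6v0b lay above both other types in every gastruloid.

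Among the 78 genes that were higher than in Primitive Streak were 6 hosts of small nucleolar RNAs, 2 targets of the stress-response factors ATF4 and CHOP, 9 lysosomal genes and 3 p53 targets. Most of the 78 lay outside these lists. Lists for snoRNA hosts, targets of ATF4 and CHOP, the unfolded protein response and the lysosome were drawn up after values had been seen. The counts of their members at day 3 may be fixed in part by that choice, also where a share over all genes stands beside them. Of 16 measured snoRNA host genes 6 were higher than in Primitive Streak and 0 lower (median 0.79), beside 0.863% higher over all genes. These noncoding genes carry small nucleolar RNAs in their introns, and their spliced transcripts are known to be kept low by nonsense-mediated decay during active translation. Zfas1 was 303 to 1372 CPM (median 849), against 111 to 155 in Primitive Streak and 60.2 to 123 in Early Neurectoderm, with no overlap and a ratio to Primitive Streak of 2.62. Snhg12 was 128 to 863 CPM against 53.9 to 76.2 (ratio 2.49), and Gas5 798 to 2659 CPM against 481 to 565 (ratio 1.62). The transcript 2410006H16Rik had the highest ratio of the named genes, 2.66, with 960 to 3351 CPM against 281 to 393. In all 12 of the 16 were positive and 4 negative, Snhg3 (ratio -0.62), Snhg9 (-0.56), Snhg18 (-0.35) and Snhg4 (-0.02).

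Ddit3, which encodes CHOP, a transcription factor induced by the integrated stress response, was 16.5 to 277 CPM (median 91.4) in the cells named Epiblast and 5.23 to 10.3 in Primitive Streak, without overlap and higher in 15 of 15 (ratio 2.60). Of 18 measured ATF4 and CHOP targets 2 were higher and 0 lower, beside 0.863% higher over all genes. They were Ddit3, the gene of CHOP itself, and Cebpb, another bZIP factor (ratio 1.39). Of the 18 targets 14 were positive (33.3% over all genes), with a median of 0.39. Nupr1, a stress-induced chromatin factor, lay under the level filter over all cells and is named through its level in the cells named Epiblast alone (51.2 CPM over the summed cells). It was 0 to 293 CPM with a median of 38.7, against 0.628 to 6.32, and was higher in 12 of 15. Atf4 itself had a ratio of 0.68, while the amino acid enzymes Asns (0.13), Psat1 (0.04) and Phgdh (-0.21) lay near 0. Of 16 genes of the unfolded protein response of the endoplasmic reticulum 0 passed in either direction (median -0.0048).

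Of the measured lysosomal genes 27 of 27 were positive against Primitive Streak, 9 were higher and 0 lower, beside 0.863% higher over all genes, with a median of 0.87. As this list was drawn up after values had been seen, its counts may be fixed in part by that choice. Atp6v0b, a subunit of the proton pump that acidifies lysosomes, was 192 to 738 CPM (median 363) against 97.4 to 134, without overlap (ratio 1.65). Ctsd, the protease cathepsin D, was 132 to 291 CPM against 52.1 to 69.0, also without overlap (ratio 1.67). Cd63, a lysosomal membrane tetraspanin, was 477 to 1341 CPM against 196 to 267 (ratio 1.46), and Sqstm1, the autophagy receptor p62, had a ratio of 1.23. Against Early Neurectoderm 27 of 27 were again positive, and 12 were higher, beside 1.36% over all genes (median 0.84). Of 13 measured p53 and apoptosis genes 3 were higher than in Primitive Streak and 0 lower, with 12 positive and a median of 0.66. Against Early Neurectoderm 3 were higher and 0 lower, with 11 positive (30.8% over all genes) and a smaller median of 0.24. The 3 higher than in Primitive Streak were Trp53inp1, an autophagy-linked p53 target (69.1 to 340 CPM against 37.0 to 65.8, ratio 1.22), Perp, an effector of p53-dependent death (ratio 1.09), and Mdm2, the ligase that degrades p53 (36.7 to 251 CPM against 38.7 to 59.1, ratio 1.05). Cdkn1a, the cell cycle inhibitor p21, had a ratio of 0.00 at that day. Other named genes of this group were Fabp3, a fatty acid carrier (136 to 670 CPM against 22.3 to 51.6, ratio 2.48), Sdc4, a syndecan (ratio 2.30), Cyba, an NADPH oxidase subunit (ratio 2.06), Bhlhe41, a transcriptional repressor (ratio 1.95), Gstt2, a glutathione transferase (ratio 1.94), and Apoe, a lipid carrier (ratio 1.65).

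**Figure D3:**
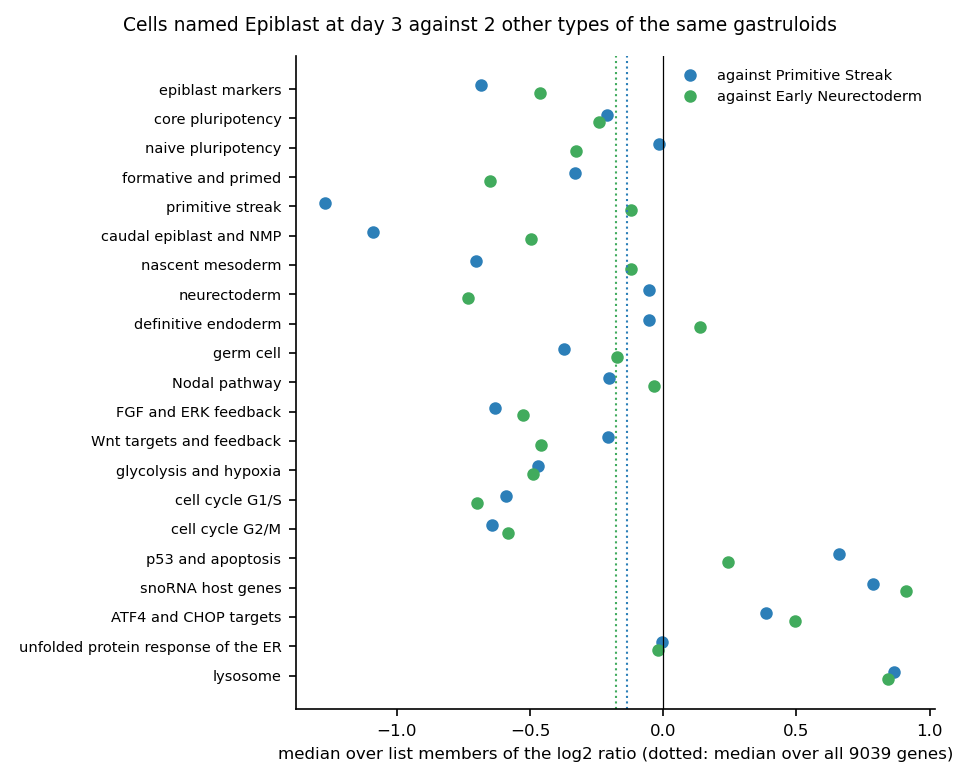
Median over the measured members of each gene list (vertical axis) of the log2 ratio between cells named Epiblast and Primitive Streak (blue) or Early Neurectoderm (green) at day 3, with dotted lines at the medians over all genes kept. Against Primitive Streak, primitive streak genes lay at -1.27, and snoRNA hosts (0.79), lysosomal genes (0.87) and p53 genes (0.66) to the right of 0. Against Early Neurectoderm these last groups lay at 0.91, 0.84 and 0.24. The lists of snoRNA hosts, ATF4 and CHOP targets, the unfolded protein response and the lysosome were drawn up after values had been seen.

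To show the regulatory sequence beside 2 of these groups, the 250 bases before the RefSeq start of each gene were searched on both strands for the ATF4 and CHOP composite element, TGATGNAA, and for the core of the CLEAR element bound by the lysosomal regulator TFEB, CACGTGAC. The first was found in 7 of 22 listed ATF4 and CHOP targets, against 3.91% of 27025 promoters, and the second in 6 of the 21 lysosomal genes with a promoter in the RefSeq table, against 2.11%. A match is a description of the letters, and no factor's binding was measured. The first list was drawn up as targets of ATF4 and CHOP, so its share of matches may be fixed in part by that choice. Neither share is support for the differences in level. The 7 targets with a match were Chac1, Atf3, Asns, Nupr1, Slc7a11, Vldlr and Aars. Of these 4 passed the level filter and 0 of the 4 were counted as higher than in Primitive Streak. Nupr1, left out by that filter, had a ratio of 1.79 and was higher in 12 of 15 gastruloids. Ddit3 and Cebpb, the 2 targets counted as higher, held no match in this window. Of the 6 lysosomal genes with a match 3 were counted as higher (Ctsd, Lamp1 and Atp6v0b), among 9 higher genes of the list. The sequences are those of Ctsd and Atp6v0b, 2 of these 3, and of Chac1 as a target with a match whose level differed little (ratio 0.20). Each line is a stretch of 80 bases of GRCm38.p6 written 5' to 3' on the gene's strand, with the element in capitals. The stretches lie at chr2:119351013-119351092 (Chac1, plus strand), chr7:142387998-142388077 (Ctsd, minus strand) and chr4:117887330-117887409 (Atp6v0b, minus strand), upstream of the first exon, and capitals on the opposite strand read as the reverse complement of the element.
Chac1: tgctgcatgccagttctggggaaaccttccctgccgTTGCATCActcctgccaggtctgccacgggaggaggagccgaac
Ctsd: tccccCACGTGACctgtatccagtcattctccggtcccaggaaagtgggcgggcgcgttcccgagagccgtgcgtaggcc
Atp6v0b: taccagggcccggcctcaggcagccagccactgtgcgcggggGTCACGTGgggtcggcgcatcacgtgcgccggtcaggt

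The shares of cells with a UMI describe the same day 3 pool and the same cluster names again, and are no separate support for the ratios above. Cells are not replicates, and the exact intervals cover counting error alone. In the day 3 pool of MULTI-seq 3, each cell was thinned to 10000 UMIs, which left 168 of 172 cells named Epiblast and 6932 of 6944 named Primitive Streak, with median depths of 30530 and 29454 UMIs before thinning. Pou5f1 had at least 1 UMI in 88.1% of the cells named Epiblast (exact interval 82.2 to 92.6) and 99.8% of Primitive Streak, and in 97.0% of the cells named Epiblast before thinning. In the pool of days 3.5 and 4 it was 85.6%, beside 12.9% of cells named Late Spinal Cord, a type that should lack it, at median depths of 50180 and 32408 UMIs. T was found in 44.6% of the cells named Epiblast at day 3 (37.0 to 52.5) and 97.6% of Primitive Streak, and in the later pool in 43.2%, beside 7.37% of Late Spinal Cord. Ddit3 was found in 47.0% (39.3 to 54.9) against 6.19% of Primitive Streak, 4.05% of Early Neurectoderm and 9.22% of PGCs, and Fabp3 in 69.6% (62.1 to 76.5) against 19.2%, 13.9% and 53.2%. Trp53inp1 was found in 73.8% against 33.8%, and Utf1 in 41.1% against 14.9% of Primitive Streak and 91.5% of PGCs. Unthinned, the shares of cells named Epiblast were 64.9% for T, 72.0% for Ddit3, 89.9% for Fabp3, 92.9% for Trp53inp1 and 67.3% for Utf1.

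**Figure D4:**
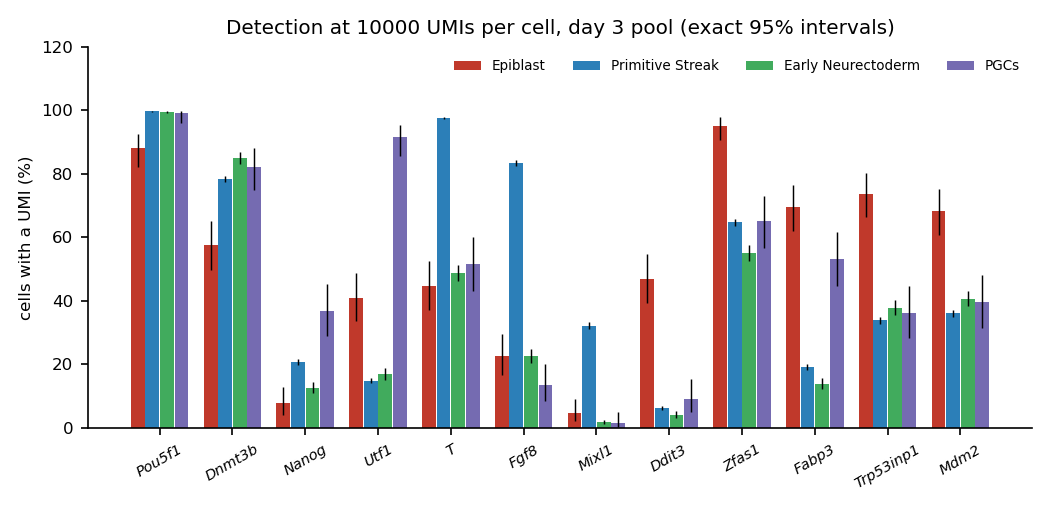
Percent of cells with at least 1 UMI of a gene after thinning each cell to 10000 UMIs (vertical axis), in the day 3 pool of MULTI-seq 3, for 12 genes (horizontal axis) and 4 cluster names (colours), with exact 95% binomial intervals. Ddit3, Zfas1, Fabp3, Trp53inp1 and Mdm2 were found in more cells named Epiblast than cells of the 3 other types, and Pou5f1 and Dnmt3b in fewer.

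The 14 highest named genes past the level filter and the 15 lowest against Primitive Streak at day 3 were also read in other cells of the same name. Those cells got the name Epiblast in the same deposited cell table, so their agreement is fixed in part by the naming, and it is given as a description and not as independent support. In the 10X day 3 lane 14 of the 14 highest and 14 of the 15 lowest passed a ratio of 1 in the same direction, and so did 14 and 14 in the Doublet-called cells, Id1 (ratios -0.55 and -0.48) being the exception in both. At day 3.5 12 and 12 passed, and at day 4 12 and 10. Those short of 1 at day 3.5 were Snhg1, Apoe, Tdgf1, Fgf5 and Id1. At day 4 they included Snhg1, Ctsd, Grsf1, Id1, Rspo3 (-0.34, from -2.74 at day 3) and Mixl1 (-0.41, from -2.49). Nupr1, left out of these counts as it lay under the filter, had a ratio of 1.79 at day 3, 0.27 at day 3.5 and 0.0 at day 4. In the 10X day 3 lane, prepared without barcoding, the ratios to Primitive Streak over summed cells were 2.63 for Ddit3, 1.92 for Zfas1, 2.43 for Fabp3, 1.62 for Ctsd, -3.19 for Fgf8 and -2.0 for T. Cells of the MULTI-seq 3 day 3 pool that were called Doublet gave 1.87, 1.87, 1.98, 1.21, -2.50 and -2.26 for the same genes. At day 3.5 the medians of these 6 genes over 7 gastruloids were 1.30, 1.31, 1.87, 1.30, -2.79 and -2.47, and at day 4, over 6 gastruloids with 41 cells named Primitive Streak, 1.93, 1.88, 2.38, 0.99, -1.44 and -2.50. Malat1 was higher in each of the same sets, with ratios of 1.80 in the 10X lane, 1.34 in Doublet-called cells, 1.44 at day 3.5 and 1.47 at day 4. Late in the series the summed cells named Epiblast held more Pou5f1 than all other cells and less than the few cells named Primitive Streak in the day 4.5 and 5 pool. In that pool the 17 cells named Epiblast held 142 CPM of Pou5f1 (exact Poisson interval 114 to 174), against 7.30 in all other cells. The 25 cells named Primitive Streak held 512. In the day 4 and later lanes of the other experiments the 29 cells named Epiblast held 154 CPM of Pou5f1 against 29.3 in all other cells, and the 7 of these from MULTI-seq 1 at day 5 held 2 UMIs of it. In the day 4.5 and 5 pool Ddit3 in the cells named Epiblast was 80.4 CPM (59.9 to 106), against 6.47 in all other cells, and Trp53inp1 was 121 CPM against 16.7. These intervals cover counting error alone.

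Between day 3 and day 3.5 many genes changed in the cells named Epiblast. The test compared 15 gastruloids with 66 cells at day 3 and 7 gastruloids with 39 cells at day 3.5, those with at least 3 cells named Epiblast, with edgeR's quasi-likelihood test and Benjamini-Hochberg adjustment over 2900 genes at a threshold of 0.05. At this threshold 336 genes rose (11.6%) and 331 fell (11.4%). The p-values measure the spread between gastruloids of a pool, and since the days sat in different pools, day and pool cannot be told apart. Depth per cell moved with the day, from a median of 33359 to 68026 UMIs, and with log2 UMIs per cell as a covariate 3 genes passed, 2 higher and 1 lower (330 at an unadjusted p under 0.05). The count was 371 without lane A of day 3, 0 without lane B, which leaves 3 day 3 gastruloids (564 at an unadjusted p under 0.05), and 352 without lane C of the later pool. In the other cells of the same gastruloids 640 of the 667 genes (96%) moved in the same direction, beside 78.6% of all 2900 genes tested. A further edgeR fit, added after the data were seen, tested whether the change differed between the cells named Epiblast and the other cells, with the gastruloid as a block. Of 10146 genes 124 had a more positive change in the cells named Epiblast (1.22%) and 27 a more negative one (0.266%), and 43 of the 667 were among them. On simulated counts this fit recovered 71% of differences of 1 on the log2 scale and 98% of those of 2. The other cells changed in their mix of types between the days, so the difference is not one within a fixed type. The number of genes called for this difference fell to 29 without lane B of day 3, 76 without lane B of the later pool and 90 without lane A of day 3. With DESeq2 it was 42, of which 23 were more positive and 19 more negative.

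The day changes named here and in the next paragraph come from the fit without depth. With depth per cell as a covariate 3 genes passed in all, and 0 passed without lane B of day 3. Of the epiblast markers tested, Pou5f1 fell from 266 to 726 CPM (median 492) to 226 to 389 (median 304), a log2 change of -0.78 (SE 0.15, edgeR adjusted p = 0.000305), while in the other cells its mean went from 729 to 318 CPM. Utf1 fell from a median of 53.3 to 15.2 CPM (log2 change -1.82, SE 0.36, edgeR adjusted p = 0.000415), and Dnmt3b did not pass (log2 change 0.31, edgeR adjusted p = 0.262). Nanog was too low to be tested. The lists of snoRNA hosts, ATF4 and CHOP targets and lysosomal genes were drawn up after values had been seen. A fall of their members from day 3 may be fixed in part by that choice. Of 12 snoRNA host genes tested 9 fell and 0 rose (median log2 change -1.17). Zfas1 fell from 303 to 1372 CPM to 199 to 465 CPM (log2 change -1.41, SE 0.23, edgeR adjusted p = 5.91e-05), and Snhg12 from a median of 426 to 135 CPM (log2 change -1.59), while the means of the other cells were 123 and 111 CPM for Zfas1 and 66.3 and 68.2 for Snhg12. The difference in change was -1.02 for Zfas1 (edgeR adjusted p = 7.1e-05) and -1.38 for Snhg12 (edgeR adjusted p = 1.63e-06). Without lane B of day 3 these were 0.17 and -0.58, and neither passed (edgeR adjusted p = 0.916 and 0.599). Of 11 ATF4 and CHOP targets 5 fell and 0 rose, Ddit3, Asns, Nupr1, Psat1 and Slc3a2. Nupr1 had the largest change of the named genes, from 0 to 293 CPM at day 3 to 0 to 15.1 at day 3.5 (log2 change -3.02, SE 0.66, edgeR adjusted p = 0.00112). Of 16 lysosomal genes 1 rose and 1 fell, and of 10 p53 genes 0 rose and 2 fell, beside 11.6% of all genes that rose and 11.4% that fell. Of 80 ribosomal protein genes, a group chosen after the values were seen, 73 fell and 0 rose with a median log2 change of -0.35, beside median ribosomal protein shares of 37.0% at day 3 and 30.5% at day 3.5. In the other cells of the same gastruloids these shares also fell, from 30.7% to 26.9%.

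Of 12 G1/S genes tested 5 rose and 0 fell (Mcm6, Mcm7, Rrm2, Gins2 and Slbp, all of DNA replication or its supply), and of 15 G2/M genes 3 rose and 0 fell, beside 11.6% and 11.4% over all genes. Cdh2, which encodes N-cadherin, rose from 0 to 58.6 CPM (median 20.7) to 50.6 to 132 (median 74.5; log2 change 1.64, SE 0.26, edgeR adjusted p = 4.74e-05). Ptn rose from a median of 130 to 416 CPM (log2 change 1.61, edgeR adjusted p = 6.49e-05), beside means of 170 and 852 in the other cells. Id1, a target of BMP signalling, rose from a median of 4.84 to 59.7 CPM (log2 change 1.64), and the caudal genes Cdx2 and Nkx1-2 rose with it among 3 tested. Jun, a subunit of AP-1, rose from a median of 17.1 to 80.9 CPM (log2 change 1.45, SE 0.32, edgeR adjusted p = 0.00134), whereas the means of the other cells were 10.2 and 9.36 CPM. Its difference in change was 1.79 (edgeR adjusted p = 0.00026), which was lost without lane B of day 3 (0.91, edgeR adjusted p = 0.591) and with DESeq2 (adjusted p = 0.0972). Other named genes that rose were Rspo3, Hmga2, a chromatin protein of embryonic cells, Dlg1, a polarity scaffold, Hist1h1e, a linker histone, Nr6a1, the germ cell nuclear factor that represses Pou5f1, and Tex15, a meiotic factor. Named genes that fell included Phlda2, an imprinted growth restraint, Chchd10, a mitochondrial protein, Tmem238 and the transcript 9230114K14Rik.

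**Figure D5:**
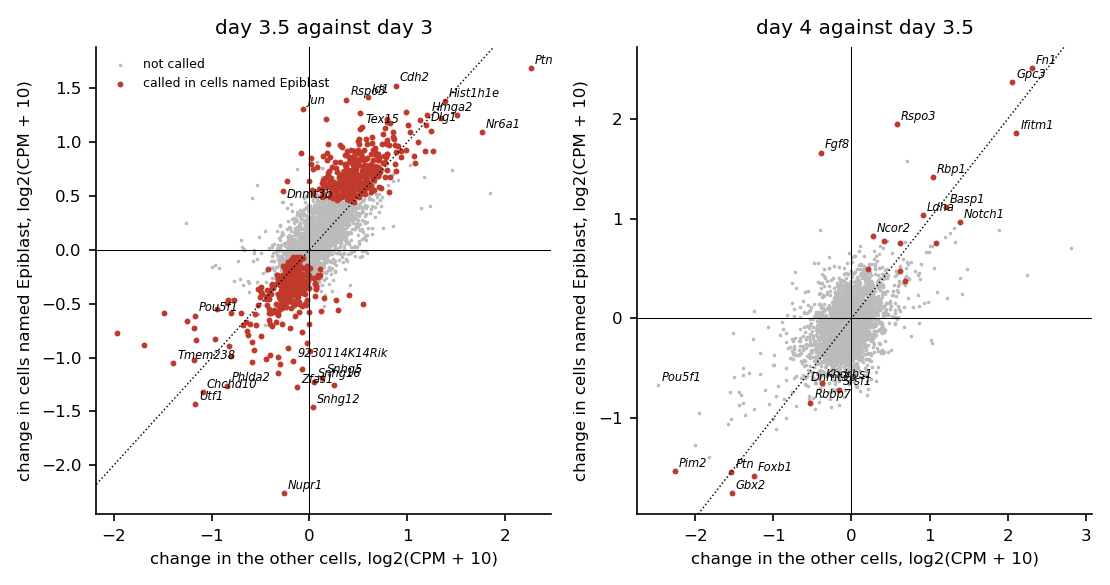
Change between days in cells named Epiblast (vertical axes) and in all other cells of the same gastruloids (horizontal axes), as the difference of log2(mean CPM + 10), for day 3.5 against day 3 and day 4 against day 3.5, with genes called in the cells named Epiblast in red and the dotted line at equal change. Of the called genes, 640 of 667 and 22 of 23 changed in the same direction in the other cells.

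From day 3.5 to day 4, days that shared pool and lanes, fewer genes passed: 16 of 3523 rose (0.454%) and 7 fell (0.199%) over 7 and 6 gastruloids (39 and 25 cells), and 370 genes had an unadjusted p under 0.05. All 7 day 3.5 gastruloids were classed neural, and most of the 6 at day 4 were classed mesodermal. Early Neurectoderm made up a median of 14.7% of their other cells at day 3.5 and 0.336% at day 4. Day was thus nearly tied to class in this test, and the part of class was not tested. Leaving out lanes A to D in turn left 15, 9, 9 and 3 genes, DESeq2 and other filters gave 13 to 181, and with log2 UMIs per cell as a covariate 2 genes passed, 0 higher and 2 lower. With that covariate none of the 16 rises was called (Fn1 had a log2 change of 2.91 and Gpc3 of 2.26, both with an edgeR adjusted p = 0.101, and Fgf8 one of 0.50, adjusted p = 0.999), and of the 7 genes that fell Rbbp7 was still called (adjusted p = 0.0454). Since each lane held both days, a fit on sums per lane and day with the lane as a paired block was also made. In it 37 genes passed (28 rose and 9 fell) and 28 passed without the block. Lanes share their gastruloids, so those p-values measure technical spread. In the other cells 22 of the 23 moved in the same direction, beside 62.9% of all 3523 genes tested. The change differed from that of the other cells in 60 of 10026 genes, 29 more positive (0.289%) and 31 more negative (0.309%), 1 of them among the 23. Over lanes left out this count ran from 30 (without lane D) and 32 (lane B) to 101 (lane C) and 102 (lane A). Of 2 nascent mesoderm genes tested both rose, Fn1 and Rspo3. Of the signalling lists 1 of 4 FGF genes rose (Fgf8) and 0 of 7 Wnt, 0 of 3 Nodal and 0 of 3 BMP genes. Fn1, fibronectin, rose from 10.1 to 54.5 CPM to 19.6 to 296 CPM (median 24.0 to 221; log2 change 2.75, SE 0.36, edgeR adjusted p = 8.76e-05). Gpc3, a glypican, rose from 16.0 to 48.2 CPM to 62.6 to 300.4, without overlap (log2 change 2.55, SE 0.28, edgeR adjusted p = 4.84e-06). Rspo3 (log2 change 2.31) and Ifitm1 (log2 change 1.97) also rose, as did Notch1, the receptor (log2 change 1.26), and the lactate dehydrogenase gene Ldha (log2 change 1.11). Fgf8 rose from a median of 49.4 to 161 CPM (log2 change 2.11, SE 0.47, edgeR adjusted p = 0.025) and was the one called gene that went the other way in the other cells, with means of 127 and 94.4 CPM (difference in change 2.32, edgeR adjusted p = 0.00051, and 0.0903 with DESeq2). Those that fell included Gbx2, a homeobox factor of the midbrain and hindbrain boundary, from 63.1 to 117 CPM to 0 to 35.2 (log2 change -1.80), Foxb1, a forkhead factor of the developing brain, from 98.8 to 182 CPM to 0 to 86.1 (log2 change -1.52) and Ptn from 192 to 915 CPM to 79.8 to 278 (log2 change -1.48). The kinase gene Pim2 fell too (log2 change -1.68), as did Rbbp7, Srsf1 and Khdrbs1, genes of chromatin and splicing. Pou5f1 did not pass (304 to 199 CPM by the medians, log2 change -0.51, edgeR adjusted p = 0.324), beside a drop of the mean from 318 to 48.7 CPM in the other cells, which were then mostly of other types. At day 4 the cells named Epiblast also held more Trp53inp1 (107 to 286 CPM) and Cdkn1a (99.4 to 296 CPM) than the other cells of the same gastruloids (21.3 to 44.2 and 29.3 to 90.7 CPM), without overlap. These are 2 of the 14 genes of the p53 and apoptosis list, and its other members are not given here for that day. In the test of day 4 against day 3.5, 0 of 11 p53 genes rose and 0 fell.

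Within day 3, few genes of the cells named Epiblast passed a test against how neural their gastruloid was. Over the 15 gastruloids, whose other cells were 1.24 to 33.8% Early Neurectoderm, 2 of 1934 genes had a slope on that percent (1 higher and 1 lower, each 0.0517%; edgeR's quasi-likelihood test), and 149 had an unadjusted p under 0.05. On simulated counts this design recovered 51% of genes that changed by 1 on the log2 scale over the range of that percent and 98% of those that changed by 2, so smaller slopes were often not detectable. Fst rose by 0.06 per percentage point on the log2 scale (edgeR adjusted p = 0.0474), over levels of 22.8 to 723 CPM, and Slc25a4, a mitochondrial ADP/ATP carrier, fell by 0.05 (edgeR adjusted p = 0.0474). Both were lost with DESeq2, which called 0 genes (323 at an unadjusted p under 0.05), and without the 2 gastruloids farthest from the median percent, where 0 passed and 79 had an unadjusted p under 0.05. For Pou5f1 the slope was 0.02 (edgeR adjusted p = 0.616).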

How the data were processed

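The files used were UMI counts per gene and cell barcode for 18 lanes, deposited by the authors and made with Cell Ranger 6.0.0 on build mm10, per the file headers and the submitters' processing notes, which also name Seurat. The authors' deposited cell table gave the cell set, cluster names, days, gastruloid calls, doublet scores and, as a fraction of neighbours, the embryo mapping scores. No label or header states how its cells were filtered and clustered. Its doublet call was negative for every cell in it, but MULTI-seq doublet calls remain, and no doublet caller was run. Counts of 32285 genes were summed per gastruloid and cluster name, and 9 cells without a matching barcode were left out. The 4 lanes of days 3 and 3.5 in MULTI-seq 2 were not analysed here.

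Members and gene lists were chosen with earlier results of these data known. Genes named from a comparison of types are the 15 with the highest and lowest ratios and at least 50 CPM in the higher type. Those named from a test are the 10 largest changes in each direction among genes past the threshold with a mean of at least 20 CPM, plus the 4 markers. Duplicate symbols were resolved to the gene with most UMIs. Gene levels and mitochondrial and ribosomal shares were compared between cluster names without a test, because the names may have been given from these genes. Depth per cell, and the difference in a gene's change between days from that in the other cells, were tested between names, and the second may also be touched by the naming. A planned minimum of 10 cells named Epiblast per gastruloid was met by 1 gastruloid, so 3 was used. Gene tests used edgeR 4.0.16 (filterByExpr, TMM, quasi-likelihood fit) in R 4.3.3, with DESeq2 1.42.0 as an alternative. Permutation tests drew 100000 resamples (smallest p 1e-05). On simulated counts for 2900 genes in the day 3.5 against day 3 design, 98% of genes changed by 1 on the log2 scale and 100% of those changed by 2 were recovered, with 6.16% false calls. In each simulation the changed genes were drawn only from those over 20 CPM. Gastruloids held 86785 to 791879 UMIs of cells named Epiblast. Promoters came from RefSeq (GRCm38.p6).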

Additional observations from a re-analysis of the deposited data

Results flagged for a closer look

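Among 57 groups of 6 or 7 gastruloids examined for the named genes, 4 had a value set far apart from the rest by Dixon's criterion; chance alone sets apart about 1 group in 20. One day 4 gastruloid held 19.6 CPM of Fn1 in its cells named Epiblast, while the next lowest held 194 CPM. One day 4 gastruloid held 74.8 CPM of Pim2 against 27.4 CPM in the next highest. At day 3.5 one gastruloid held 167 CPM of Rspo3 (next highest 81.8) and one held 136 CPM of Snhg5 (next highest 70.8).

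Cells named Epiblast also appeared in lanes that carry no gastruloid calls and so enter no test, above the limit that a count of 0 allows: 1.08% of the 10X day 3 lane, 0.287% of the 10X day 4 lane and 0.176% of pool C of MULTI-seq 2.

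For 8 of the named genes the change from day 3 to day 3.5 differed between the cells named Epiblast and the other cells of the same gastruloids, by edgeR's test of the difference itself. Over all 10146 genes 1.22% were more positive and 0.266% more negative. Apart from the markers, the named genes were picked for a large change in the cells named Epiblast, which favours such a difference. The log2 difference was more negative for the snoRNA hosts Snhg12 (-1.38), Snhg16 (-1.45), Snhg5 (-1.36) and Zfas1 (-1.02). It was more positive for Id1 (1.23), Jun (1.79), Pou5f1 (0.66) and Dnmt3b (0.81). None of the 8 passed without lane B of day 3, which leaves 3 day 3 gastruloids. From day 3.5 to day 4 the change of Fgf8 (2.32) and of Pou5f1 (2.18) was more positive than in the other cells. Over all 10026 genes 0.289% were more positive and 0.309% more negative. Pou5f1 and Dnmt3b are markers of the name, so their differences may be fixed in part by the naming. The other cells also changed in their mix of types between the days.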

How the results depend on the processing

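The fall in the share from day 3.5 to day 4 held in each alternative except the embryo-mapped name (-0.192 points, not past the threshold), with -1.28 to -0.997 points over lanes left out. Values by the embryo-mapped name count a mostly different set of cells (143 of 1554 were named Epiblast). Day 3.5 against day 3, which never passed by cluster name, turned to -0.146 with at least 100 cells, -8.04 by the embryo-mapped name, and ran from -0.0904 to 0.23 over lanes (-0.0333 without lane C of the later pool). Day 4.5 against day 4 was -0.613 by the embryo-mapped name and -0.0423 to 0.123 over lanes, day 5 against day 4.5 -0.017 to 0.0251, and MULTI-seq 3 against 2 was -0.592 by the embryo-mapped name and 0.0725 to 0.313 over lanes. For the relations at day 3, r ran over lanes from 0.458 to 0.508 (Early Neurectoderm), 0.307 to 0.549 (Caudal Neurectoderm, past the threshold at the upper value), -0.424 to -0.243 (Anterior Primitive Streak), -0.34 to -0.294 (Early Nascent Mesoderm), -0.283 to -0.22 (Early Posterior PSM) and -0.136 to -0.111 (Primitive Streak, -0.0322 among all cells). With means in place of medians per gastruloid, the mitochondrial difference was -0.546 points against Primitive Streak and -0.542 against Early Neurectoderm.

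Genes called for day 3.5 against day 3 numbered 293 with at least 4 cells named Epiblast, 3 with depth as a covariate, and 0 to 509 over lanes. For day 4 against 3.5 they were 181 without a filter, 38 with DESeq2, 13 with at least 4 cells, 2 with depth as a covariate, and 3 to 15 over lanes. For the neural slope they were 30 without a filter, 6 on mesoderm percent, and 0 with DESeq2 (323 at an unadjusted p under 0.05), with at least 2 cells (154) or without 2 gastruloids (79). The difference in change from the other cells was called for 246 genes without a filter, 42 with DESeq2 and 29 to 162 over lanes (day 3.5 against 3), and for 122, 20 and 30 to 102, with 20 also at a minimum of 4 cells (day 4 against 3.5). Minimum cell numbers, lane sums, the difference in change and the depth covariate were chosen after seeing the data; the causes were not tested. Of the values for named genes 374 kept their direction and side of the threshold, called or not, 141 lost a call, 2 gained one and 1 reversed: the difference in change of Zfas1, which ran over lanes from -1.30 to 0.173, the latter without lane B of day 3. The planned minimum of 20 cells, and lanes left out for the slope, could not be run. For day 4 against 3.5, whose lanes hold both days, sums per lane and day gave 28 genes, and 37 with the lane as replicate block. Within lanes, which share their gastruloids and so are technical repeats, the share was lower at day 4 than 3.5 in 4 of 4. It was higher at day 4.5 than 4 in 1 of 2, and higher at day 5 than 4.5 in 1 of 3. No paired analysis was possible for day 3.5 against 3 because these days sit in different pools, and gastruloids share no number between days. Few cells per gastruloid (3 to 11) limit the depth: a median day 3 gastruloid held 121274 UMIs.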
